A study of Mus musculus with 22 samples.

Results

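The translation initiation factors are the proteins that load a ribosome onto an mRNA and find its start codon. Genes were chosen by symbol alone: every gene of the deposited table whose symbol begins with Eif1 to Eif6, leaving out the eIF2 kinases (Eif2ak genes) and the Y-linked Eif2s3y. This gave 47 of the 12596 genes in the table. The symbols Eif4ebp1, Eif4ebp3, Eif4e1b, Eif1ad2 and Eif3j would also meet the rule but are absent from this filtered table. The study followed 11 mice on a C57Bl/6 background. All carried a Th-cre transgene, whose Cre is driven from the tyrosine hydroxylase promoter, and Slc6a2-eGFP/Rpl10a, which puts a GFP-tagged ribosomal protein under the noradrenaline transporter promoter. An hTyr infusion, named for human tyrosinase, the pigment enzyme, was given to 5 animals, and an EYFP infusion, a fluorescent protein control, to 6. From each animal a library was made of the ribosome-bound RNA pulled down through the tag (IP, labelled noradrenergic) and another of the RNA before the pull-down (input, labelled total hindbrain). There are thus 5 libraries of each fraction from hTyr animals and 6 of each from EYFP animals. Age and time after infusion are not given in the sources used here.

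Initiation begins when eIF2, made of an alpha (Eif2s1), a beta (Eif2s2) and a gamma (Eif2s3x) subunit, brings the initiator tRNA to the small ribosomal subunit, where eIF1, eIF1A and eIF5 guard start codon choice and eIF3 is the large scaffold. The eIF4F complex, of the cap binder eIF4E, the helicase eIF4A and the scaffold eIF4G, brings the mRNA, and the 4E-BP proteins can hold eIF4E away from it. After each round eIF2B recharges eIF2 with GTP, a step that stress kinases block by phosphorylating the alpha subunit, and eIF5B joins the large subunit. These are statements of protein activity, and the values here are RNA levels only.

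Depth lay between 12654489 and 25100142 reads per library. The values are log2 CPM, the base 2 logarithm of reads scaled to library size, with a small pseudocount, and the member of lowest depth, Eif4e3, had at least 143 reads in every library. The noradrenergic marker list, 10 of 10 genes in the table, rose in IP in both treatments, with a mean level of 5.49 to 6.57 log2 CPM in EYFP IP against 3.42 to 3.74 in EYFP input, and 5.81 to 7.35 in hTyr IP against 3.39 to 3.69 in hTyr input. Markers of other cells were still present in IP: the mean level of 10 oligodendrocyte markers was 8.13 to 8.43 in EYFP IP and 8.23 to 8.53 in EYFP input. In bulk RNA, fewer cells of a type and less RNA per cell cannot be told apart.

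Per length of transcript, the initiation factors spanned a wide range of levels. In EYFP IP, Eif4a2, the eIF4A helicase form abundant in brain, was the highest of the 47 at 491 ± 40.5 CPM per 1000 bases (SD, n = 6), and Eif1 was next at 297 ± 38.7 CPM per 1000 bases. Eif4e3, a cap-binding relative of eIF4E, was the lowest at 4.81 ± 0.60 CPM per 1000 bases. The order within complexes was uneven as well. Among the 14 eIF3 genes the level in EYFP IP ran from 8.95 CPM per 1000 bases for Eif3j1 to 246 for Eif3k, and among the 5 eIF2B subunits only from 15.2 for Eif2b1 to 32.1 for Eif2b5. Within eIF2, the alpha and beta subunits stood close together, at 20.4 ± 3.1 for Eif2s1 and 22.7 ± 1.5 CPM per 1000 bases for Eif2s2, which do not differ beyond their spread, while the gamma subunit Eif2s3x was at 63.3 ± 18.3. Lengths are those of the principal transcript of GENCODE vM21, so a gene that uses another isoform would be misplaced in this order.

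Promoter windows from RefSeq (GRCm38.p6, from 250 bases before to 50 after the annotated start) matched 38 of the 47 members. Many genes of the translation machinery begin transcription at a C followed by a run of pyrimidines, the 5′ terminal oligopyrimidine tract through which mTORC1 controls their translation. Only the annotated start was searched, so a tract at another start in use would be missed. The shares are thus not those of genes that carry a tract. A C at the annotated start followed by at least 4 pyrimidines was found in 2 of the 38 members (5.26%), against 3.01% of all 27025 genes with a window and 21.7% of 60 cytosolic ribosomal protein genes. The 2 are Eif3f (chr7:108934400-108934429, plus strand) and Eif2s3x (chrX:94212637-94212666, minus strand). They are shown beside Eif3a (chr19:60790679-60790708, minus strand), the eIF3 scaffold subunit, and Eif4ebp2 (chr10:61452655-61452684, minus strand), with 15 bases on each side of the start and the tract or the start base in capitals.
Eif3f: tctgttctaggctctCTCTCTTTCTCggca
Eif2s3x: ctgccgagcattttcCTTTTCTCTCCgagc
Eif3a: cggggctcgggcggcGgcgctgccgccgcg
Eif4ebp2: ggtatcgcagcgggaCgaccgggcgagagc

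The letters CACGTG, the E-box read by MYC and related factors and the same on both strands, were in the window of 10 of 38 members (26.3%), against 8.09% of all genes with a window and 11.9% of the 9578 of them in the table. They occurred in members that were higher in IP (4 of the 17 with a window that rose in both treatments) and in members that were lower (3 of 8). Positions are counted from the RefSeq start, and GENCODE starts can differ. Eif3a holds the motif 23 bases in (chr19:60790654-60790683, minus strand), but before its GENCODE start at 60790658. Eif4g1 holds it at 2 places, of which the one 16 bases in is shown (chr16:20672730-20672759, plus strand). Eif1b holds it 24 bases before the start (chr9:120492570-120492599, plus strand). The motif is in capitals.
Eif3a: ccgcgagggaatCACGTGgttccttccttt
Eif4g1: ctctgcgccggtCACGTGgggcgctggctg
Eif1b: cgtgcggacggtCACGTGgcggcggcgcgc
The letters TGATGNAA, a core of the C/EBP-ATF response element bound by ATF4 and CHOP, were searched on both strands and found in 1 of 38 members (2.63%), Eif2s3x, against 4.51% of all genes with a window and 2.55% of those in the table. These matches describe letters in the windows and not binding.

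IP against input compares the RNA recovered through the tag, which still held RNA of other cells, with the RNA of the whole tissue piece. Many initiation factor genes were higher in IP, led by the eIF3 scaffold, eIF2 alpha, eIF5B and the eIF4G scaffolds, while the eIF4E inhibitor Eif4ebp2 and several cap-binding and start-site genes were lower. In EYFP animals 24 of the 47 members rose and 11 fell (limma, Benjamini-Hochberg adjusted p under 0.05 over all genes), which is 51.1% and 23.4% of them, where 28.5% of all genes tested rose and 28.1% fell. In hTyr animals 22 rose and 10 fell (46.8% and 21.3%), where 27.4% of all genes rose and 27.0% fell. The median log2 change of the members was 0.23 in EYFP and 0.22 in hTyr animals, against -0.03 and -0.04 over all genes. Of the members, 21 rose in both treatments, 9 fell in both, 7 passed the test in only 1 of the treatments and 10 in neither, and 0 changed in opposite directions. In EYFP animals the count of falls moved to 7 without the animal of IP_504, IP_506 or IP_512, since Eif1, Eif1ad, Eif1b and Eif4g2 then missed the threshold.

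**Figure D1:**
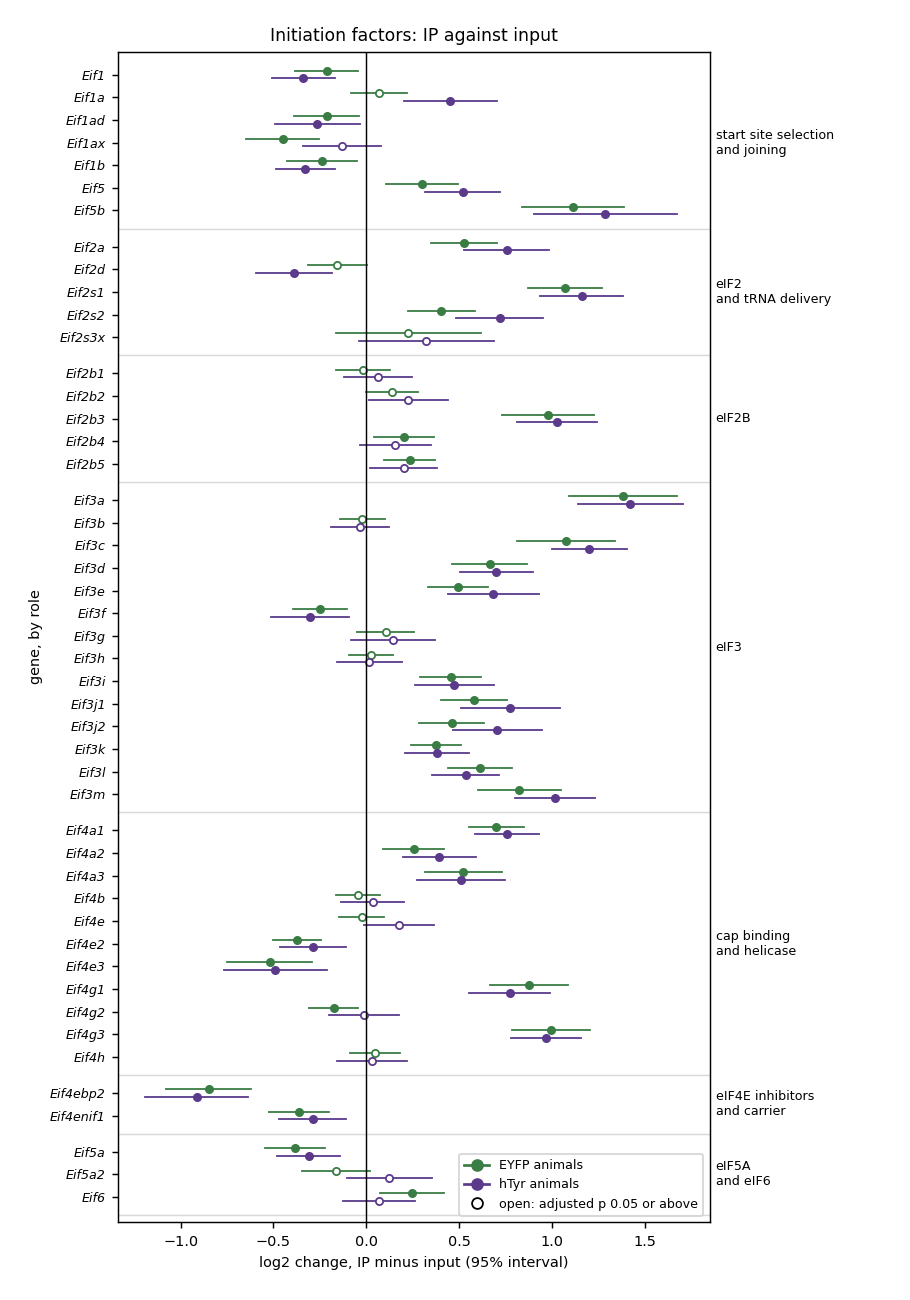
Log2 change of each of the 47 initiation factor genes, IP minus input, in EYFP (green) and hTyr (purple) animals, ordered by role, with lines for 95% intervals and filled points for adjusted p under 0.05. The eIF3 block lies mostly to the right of 0, with Eif3a at 1.38 and 1.42, and Eif4ebp2 lies farthest to the left at -0.85 and -0.91.

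eIF3 had the largest share of rises. Of its 14 genes, 10 rose in IP in each treatment and 1, Eif3f, fell in each, with a median log2 change of 0.48 in EYFP and 0.61 in hTyr animals. The rises were 71.4% of the 14, where 28.5% of all genes rose in EYFP and 27.4% in hTyr animals. Eif3a (chr19, 60761117 to 60790658, minus strand, GRCm38) encodes the largest subunit, on which the complex is assembled. Its level was 4.82, 5.26 and 5.63 log2 CPM (lowest, median, highest) in EYFP input and 6.15, 6.70 and 6.96 in EYFP IP. In hTyr animals it was 4.59, 5.0, 5.03, 5.29 and 5.43 log2 CPM in input and 6.30, 6.39, 6.42, 6.58 and 6.75 in IP. Every IP library was above every input library, so the groups did not overlap in either treatment. The change was 1.38 ± 0.14 on the log2 scale (SE, 2.61-fold; limma adjusted p = 1.42e-06) in EYFP and 1.42 ± 0.13 (2.68-fold; adjusted p = 2.75e-07) in hTyr animals.

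Eif3c (chr7, 126546455 to 126566411, minus strand), the other large core subunit, ran at 6.28, 6.47 and 6.66 log2 CPM in EYFP input against 7.03, 7.56 and 7.95 in EYFP IP. In hTyr animals it was 6.18, 6.28, 6.30, 6.36 and 6.57 in input and 7.27, 7.50, 7.56, 7.67 and 7.68 log2 CPM in IP. The groups again did not overlap, and the log2 change was 1.08 ± 0.12 in EYFP (SE, limma adjusted p = 4.59e-06) and 1.20 ± 0.10 in hTyr animals (adjusted p = 5.08e-08). Eif3m, Eif3d and Eif3l followed in EYFP animals with log2 changes of 0.82, 0.66 and 0.61. Not every subunit passed the threshold in the main fit: Eif3b, a scaffold with Eif3a, gave a log2 difference of -0.02 in EYFP and -0.03 in hTyr animals and Eif3h one of 0.02 in each, with none of the 4 past it. With each library's trend on GC content and length removed and the animal as a block, Eif3b passed the test in both treatments. The 2 copies Eif3j1 and Eif3j2, which are near-identical and may share reads, gave 0.58 and 0.46 in EYFP animals.

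Eif3f (chr7, 108934417 to 108942951, plus strand), which carries the pyrimidine start shown above, went the other way. It was at 8.20, 8.26 and 8.37 log2 CPM in EYFP input and 7.82, 8.07 and 8.17 in EYFP IP, and at 8.02, 8.27, 8.29, 8.31 and 8.46 in hTyr input against 7.68, 7.95, 7.98, 8.05 and 8.17 in hTyr IP. The groups did not overlap in EYFP animals but did in hTyr animals, although IP was below input within each of the 11 animals. The log2 change was -0.25 ± 0.07 (SE, limma adjusted p = 0.00549) and -0.30 ± 0.10 (adjusted p = 0.0159), and in hTyr animals it missed the threshold without the animal of IP_502.

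Of the 5 genes of eIF2 and tRNA delivery, Eif2s1, Eif2s2 and Eif2a rose in both treatments. They are 60% of the 5, where 28.5% of all genes rose in EYFP and 27.4% in hTyr animals. Eif2s1 (chr12, 78861819 to 78887010, plus strand) encodes eIF2 alpha, the subunit that the stress kinases phosphorylate. It was at 4.86, 5.06 and 5.12 log2 CPM in EYFP input and 5.73, 6.22 and 6.31 in EYFP IP, and at 4.90, 4.91, 4.93, 5.14 and 5.34 in hTyr input against 6.05, 6.11, 6.15, 6.23 and 6.46 in hTyr IP. The groups did not overlap, and the log2 change was 1.07 ± 0.10 in EYFP (SE, limma adjusted p = 8.48e-07) and 1.16 ± 0.11 in hTyr animals (adjusted p = 2.09e-07). The beta subunit Eif2s2 rose less, by 0.40 and 0.72 on the log2 scale. Eif2a, an alternative tRNA carrier that is not a subunit of eIF2, rose by 0.52 and 0.75, and Eif2d, another alternative carrier, fell by 0.39 in hTyr animals and gave -0.16 in EYFP animals (adjusted p = 0.0876).

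Of the 5 subunits of the exchange factor eIF2B, 3 rose in EYFP animals and 1 in hTyr animals, and the change was largest for Eif2b3. The rises were 60% and 20% of the 5, where 28.5% and 27.4% of all genes rose. Eif2b3, the gamma subunit, rose by 0.98 ± 0.12 on the log2 scale in EYFP and 1.03 ± 0.10 in hTyr animals (SE, limma adjusted p = 6.19e-06 and 4.45e-07), whereas Eif2b1 gave differences of -0.02 and 0.06 that missed the threshold. The rise of Eif2b4 in EYFP animals missed it under median centring and quantile normalization. It also did so without the animal of IP_506, IP_507, IP_511 or IP_512. Eif2b5, the catalytic epsilon subunit, was at 6.04, 6.10 and 6.28 log2 CPM in EYFP input and 6.16, 6.38 and 6.45 in EYFP IP, and the groups overlapped. It rose by 0.23 ± 0.06 in EYFP animals (SE, adjusted p = 0.00591) and gave 0.20 ± 0.08 in hTyr animals (adjusted p = 0.0549). There it passed the test with sample quality weights, with a shared spread, with GC content and length removed with the animal as a block, and without the animal of IP_501.

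Of the 7 genes of start site selection and subunit joining, 2 rose and 4 fell in EYFP animals and 3 rose and 3 fell in hTyr animals. The rises in EYFP animals were 28.6% of the 7, near the 28.5% of all genes, and the falls 57.1% against 28.1%. In hTyr animals rises and falls were 42.9% each, against 27.4% and 27.0% of all genes. Eif5b, the GTPase that joins the large ribosomal subunit, was among the largest rises. It was at 4.71, 4.95 and 5.07 log2 CPM in EYFP input and 5.44, 6.05 and 6.46 in EYFP IP, and at 4.11, 4.57, 4.62, 4.82 and 5.18 in hTyr input against 5.63, 5.67, 5.72, 6.24 and 6.47 in hTyr IP, without overlap. The log2 change was 1.11 ± 0.13 (SE, limma adjusted p = 4.99e-06) and 1.29 ± 0.18 (adjusted p = 1.97e-05). Eif5, the GTPase activator of eIF2, rose by 0.30 in EYFP and 0.52 in hTyr animals. Several small factors were lower in IP: Eif1 fell by 0.21 and 0.34 on the log2 scale, its copy Eif1b by 0.24 and 0.33, and Eif1ad, an eIF1A-like protein, by 0.21 and 0.26. The fall of Eif1ad in hTyr animals (limma adjusted p = 0.0473) missed the threshold with no trend and with voom on recovered reads. It also did so without the animal of IP_501, IP_502 or IP_508. Eif1ax, the X-linked eIF1A gene, fell by 0.45 ± 0.09 in EYFP animals (SE, adjusted p = 0.000645) and gave -0.13 ± 0.10 in hTyr animals (adjusted p = 0.276). With each library's trend on GC content and length removed and the animal as a block, it fell by 0.73 in hTyr animals as well (limma adjusted p = 1.63e-07). The reads of Eif1ax and its autosomal copy Eif1a may not be cleanly divided by the counting, and both are uncertain.

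Of the 11 cap-binding and helicase genes, 5 rose in each treatment, and 3 fell in EYFP and 2 in hTyr animals. The rises were 45.5% of the 11 in each treatment, where 28.5% of all genes rose in EYFP and 27.4% in hTyr animals. Falls were 27.3% in EYFP and 18.2% in hTyr animals, where 28.1% and 27.0% of all genes fell. Eif4g3 and Eif4g1 encode the eIF4G scaffolds. Eif4g3 was at 6.31, 6.41 and 6.63 log2 CPM in EYFP input and 7.03, 7.43 and 7.67 in EYFP IP, and at 6.12, 6.28, 6.34, 6.36 and 6.36 in hTyr input against 7.08, 7.13, 7.23, 7.42 and 7.43 in hTyr IP. The groups did not overlap, and it rose by 1.00 ± 0.10 in EYFP (SE, limma adjusted p = 1.42e-06) and 0.97 ± 0.09 on the log2 scale in hTyr animals (adjusted p = 2.25e-07). Eif4g1 rose by 0.88 and 0.77, also without overlap. Eif4g2, which encodes DAP5, an eIF4G relative that does not bind the cap binder, fell by 0.18 in EYFP animals (adjusted p = 0.0237), and this missed the threshold without the animal of IP_504, IP_506, IP_507 or IP_512, whereas it gave -0.01 in hTyr animals, where it fell by 0.50 (limma adjusted p = 1.42e-07) once GC content and length were removed with the animal as a block. The helicase genes Eif4a1, Eif4a2 and Eif4a3 rose in both treatments, by 0.70, 0.26 and 0.52 in EYFP animals. The rise of Eif4a2 in EYFP animals missed the threshold under quantile normalization (0.15, limma adjusted p = 0.098). Eif4a1 and Eif4a2 are close copies whose reads may be shared.

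The cap binder Eif4e itself was at 6.94, 7.07 and 7.20 log2 CPM in EYFP input and 6.96, 7.05 and 7.11 in EYFP IP, an overlap with a log2 difference of -0.03 ± 0.06 (SE, limma adjusted p = 0.728). In hTyr animals the difference was 0.18 ± 0.09 (adjusted p = 0.105). Its relatives Eif4e2, a translational repressor, and Eif4e3 fell, by 0.37 and 0.52 in EYFP and by 0.29 and 0.49 in hTyr animals.

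The largest fall among the members was in Eif4ebp2 (chr10, 61428491 to 61452661, minus strand), the 4E-BP form most used in brain, which sequesters eIF4E until mTORC1 phosphorylates it. It was at 6.91, 6.94 and 7.23 log2 CPM in EYFP input and 5.90, 6.10 and 6.64 in EYFP IP, and at 6.53, 6.89, 6.91, 6.97 and 7.12 in hTyr input against 5.52, 5.83, 6.10, 6.18 and 6.23 in hTyr IP. All IP libraries were below all input libraries of their treatment. The log2 change was -0.85 ± 0.11 in EYFP (SE, 0.555-fold; limma adjusted p = 1.11e-05) and -0.91 ± 0.13 in hTyr animals (0.531-fold; adjusted p = 2.31e-05). Eif4enif1, which carries eIF4E into the nucleus and to granules, fell by 0.36 and 0.29. Among the factors that act late, Eif5a, which helps ribosomes past stalling stretches, fell by 0.38 and 0.31. Its copy Eif5a2 gave -0.16 and 0.12 without passing the test. With the replicate block it fell in EYFP animals (limma adjusted p = 0.0192), where IP was below input in 6 of 6 animals, and not in hTyr animals (adjusted p = 0.304). Eif6, which keeps free large subunits apart, rose by 0.25 in EYFP animals (adjusted p = 0.0161) and gave 0.07 in hTyr animals. Its rise in EYFP animals missed the threshold under median centring, under quantile normalization and without the animal of IP_507.

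**Figure D2:**
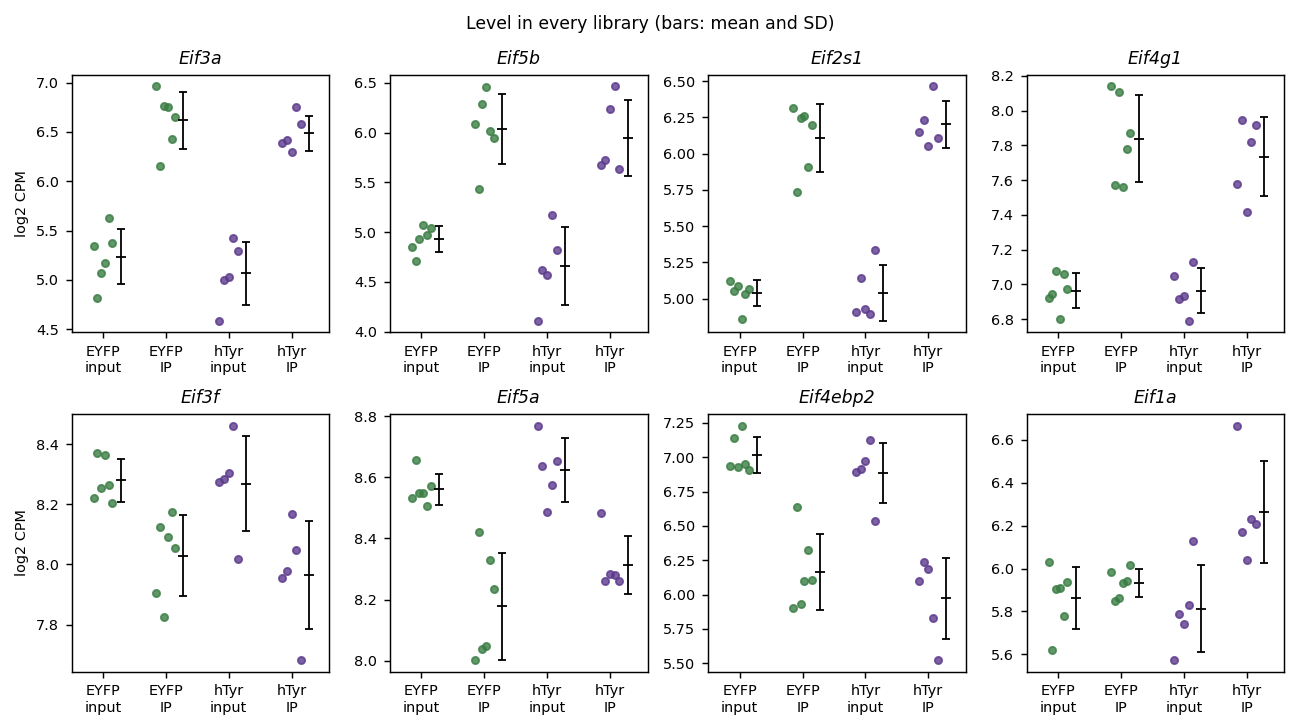
Level of 8 initiation factor genes in log2 CPM (y axis, a separate range for each gene) in every library of the 4 groups (x axis), EYFP in green and hTyr in purple, with bars for the mean and SD. Eif3a, Eif5b, Eif2s1 and Eif4g1 are higher and Eif4ebp2 is lower in every IP library than in any input library of its treatment, while Eif1a lies at 6.04 to 6.67 log2 CPM in hTyr IP and 5.85 to 6.02 in EYFP IP, a difference that did not pass the test.

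Members with long coding sequences had larger changes in IP than those with short ones, an ordering shared with the rest of the table. Of the 7 members with coding sequences over 2700 bases, 5 rose and 2 fell in EYFP animals, with a median log2 change of 1.00, where 41.8% of all genes of that length rose and 21.5% fell, with a median of 0.13. Of the 21 under 1000 bases, 7 rose and 8 fell, with a median of -0.02, where 15.3% of all genes of that length rose and 34.0% fell, with a median of -0.11. Across the 47 members, Spearman's rho between coding length and the log2 change was 0.54 in EYFP and 0.48 in hTyr animals, against 0.23 in each over 11738 genes with a transcript. These correlations are across genes, which share their libraries and are not independent replicates. Base composition moved with the fraction: the median level of genes in the lower quartile of GC content less that of genes in the upper quartile, each relative to the gene's own mean, was -0.047 to 0.44 in the 11 IP libraries and -0.69 to -0.052 in the 11 input libraries on the log2 scale. With each library's trend on GC content and length removed and the animal as a block, 26 members rose and 14 fell in each treatment, where 32.9% of all genes rose and 30.5% fell in EYFP and 31.2% rose and 27.4% fell in hTyr animals. There the rises of Eif5 and Eif4a2 were lost in both treatments and that of Eif1a in hTyr animals. The log2 differences for Eif5 were -0.0081 in EYFP and 0.066 in hTyr animals. Eif4e fell, by 0.40 and 0.37, while the changes of Eif3a were 1.19 and 1.13. Several falls were larger there and present in both treatments: Eif1ax fell by 0.87 in EYFP and 0.73 in hTyr animals, Eif4g2 by 0.52 and 0.50 and Eif5a2 by 0.62 and 0.52 on the log2 scale. Eif2b5 rose by 0.31 in each. Eif2b2, Eif3b, Eif3g and Eif4h, not called in the main fit, passed the test there in both treatments. How much of the IP differences comes with base composition was not tested beyond this removal.

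Other parts of the translation machinery did not all move like the initiation factors in IP. Of 20 aminoacyl-tRNA synthetase genes in the table, 18 rose in EYFP and 19 in hTyr animals and 0 fell, with median log2 changes of 0.46 and 0.53. Of 18 elongation and termination factor genes, 7 and 8 rose and 1 and 0 fell, with medians of 0.11 and 0.12. Of 81 cytosolic ribosomal protein genes, 2 and 1 rose and 5 and 18 fell, with medians of -0.04 and -0.13. Of 26 genes that help initiation, such as poly(A)-binding proteins and helicases, 15 and 14 rose and 7 and 6 fell. Of 10 markers of other neurons, 8 rose in EYFP and 7 in hTyr animals, with 0 lower. Of 10 astrocyte markers 4 and 5 rose and 1 and 2 fell, and of 8 endothelial markers 3 and 4 rose and 0 fell. Of 10 oligodendrocyte markers 2 and 3 rose and 5 fell in each treatment. Of 11 microglia markers 1 and 2 rose and 1 fell in each. Over all genes 28.5% rose and 28.1% fell in EYFP and 27.4% rose and 27.0% fell in hTyr animals. The part of other cells in the IP differences of the initiation factors was not tested.

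Eif2s3x, the X-linked gamma subunit of eIF2 and a gene known to escape X inactivation, fell into separate clusters that followed its Y-linked copy. Eif2s3y had 211 to 539 reads in the libraries of 5 animals and 0 or 1 read in those of the other 6, and each treatment held animals of both kinds (3 and 3 in EYFP, 2 and 3 in hTyr). In IP, Eif2s3x was at 7.21 to 7.65 log2 CPM in the animals with Eif2s3y reads and 8.06 to 8.21 in those without. In input it was at 6.92 to 7.38 and 7.74 to 7.91. The clusters did not overlap in either fraction. The animals were not grouped by the study in this way, so no test is given, and the near-identical copies may share reads. Without the animal as a block Eif2s3x gave a log2 difference of 0.23 ± 0.19 between IP and input in EYFP (SE, limma adjusted p = 0.311) and 0.32 ± 0.17 in hTyr animals (adjusted p = 0.123). With the replicate block, which takes out the difference between animals, it rose, with adjusted p = 0.00373 and 0.000868, and with GC content and length removed as well the differences were 0.034 and 0.025 and missed the threshold.

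**Figure D3:**
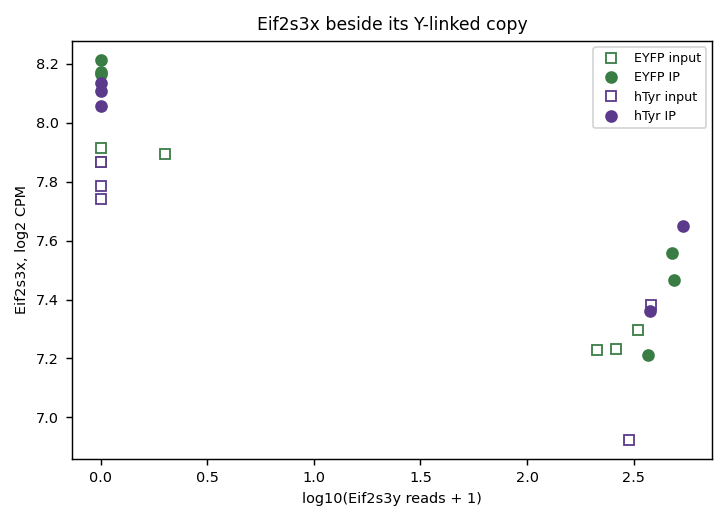
Level of Eif2s3x (log2 CPM, y axis) against reads of its Y-linked copy Eif2s3y (log10 of reads + 1, x axis) in the 22 libraries, with circles for IP, open squares for input, green for EYFP and purple for hTyr. The 10 libraries of animals with Eif2s3y reads lie at 6.92 to 7.65 and the 12 of animals with 0 or 1 read at 7.74 to 8.21.

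hTyr against EYFP in IP asks whether the RNA recovered by the pull-down differed with the infusion. No initiation factor gene passed the test. The count was 0 of 47 with limma at an adjusted p of 0.05, where 0.0556% of all genes did (7, all higher), and it was 0 with voom on recovered reads as well. At an unadjusted p under 0.05 there were 5 members, all higher in hTyr, with either tool, where 6.19% of all genes had such a p with limma and 2.88% had it and were higher. The median log2 change of the members was 0.035, against -0.0055 over all genes. The 95% interval lay within 0.5 on the log2 scale on both sides for 45 of the 47 and within 1 for all 47, and its outer bounds over the members were -0.50 for Eif4ebp2 and 0.55 for Eif1ax. A 2-fold change of the IP level in either direction thus lay outside the interval of each member. IP still held RNA of other cells, so these intervals do not bound a change within the noradrenergic cells alone.

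**Figure D4:**
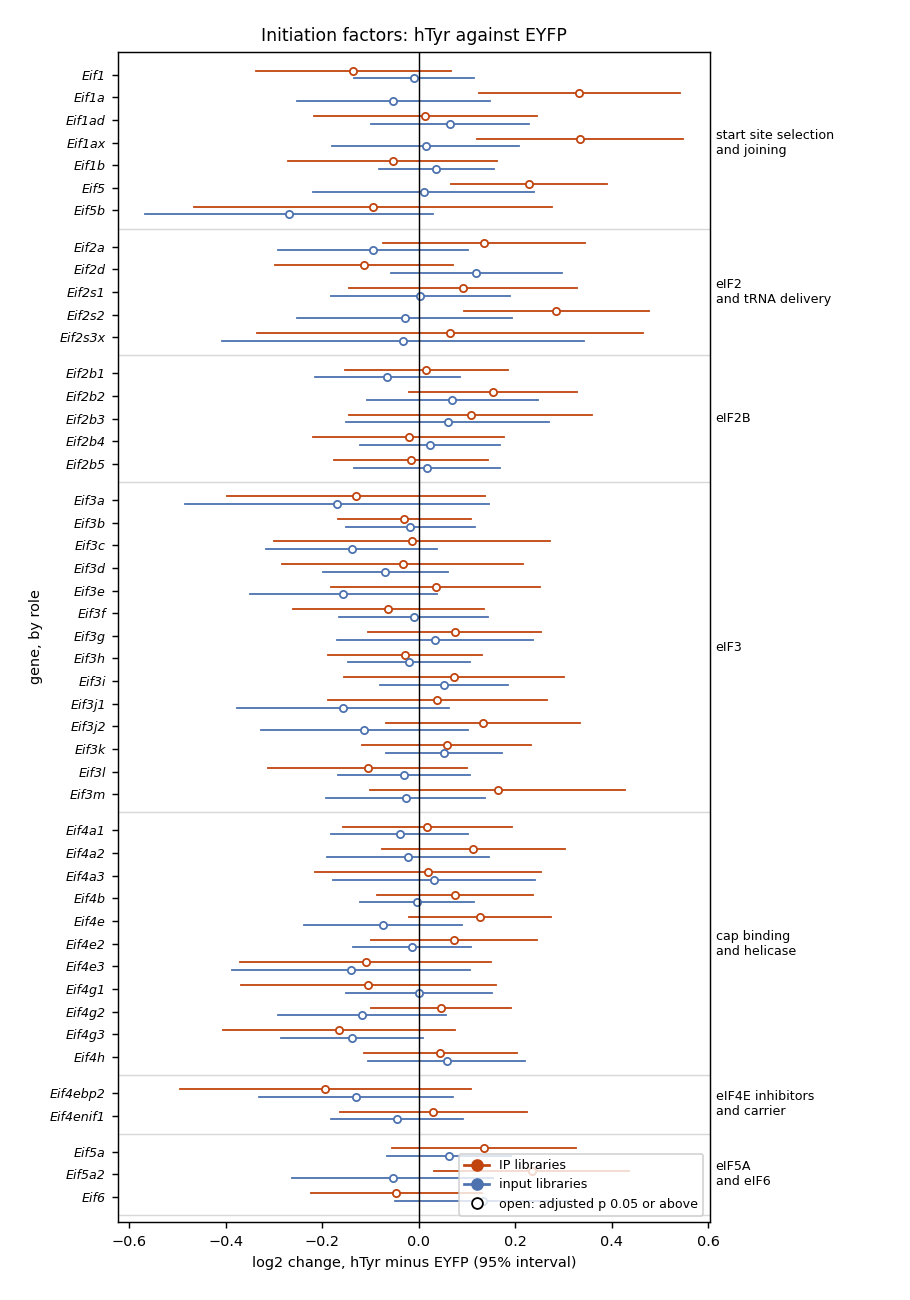
Log2 change of each of the 47 initiation factor genes, hTyr minus EYFP, in IP (orange) and in input (blue), ordered by role, with lines for 95% intervals and open points for adjusted p of 0.05 or above. All points are open, and the members with an interval above 0 in IP are Eif1a, Eif1ax, Eif2s2, Eif5 and Eif5a2.

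The 5 members of lowest p in IP were Eif1a, Eif1ax, Eif2s2, Eif5 and Eif5a2. Eif1a was at 5.85, 5.94 and 6.02 log2 CPM in EYFP IP (lowest, median, highest) and at 6.04, 6.17, 6.21, 6.23 and 6.67 in hTyr IP. It was the only member whose groups did not overlap, 1 of 47 higher and 0 lower, where 0.389% of all genes did not overlap with hTyr higher and 0.262% with hTyr lower. The log2 difference was 0.33 ± 0.10 (SE, limma adjusted p = 0.593). Eif1ax was at 4.87, 5.11 and 5.32 log2 CPM in EYFP IP and at 5.30, 5.38, 5.39, 5.52 and 5.68 in hTyr IP, so its groups met at the edge. Its difference was 0.33 ± 0.10 (SE, limma adjusted p = 0.617).

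Eif2s2 was at 5.72, 5.85 and 6.00 log2 CPM in EYFP IP and at 5.99, 6.01, 6.02, 6.29 and 6.38 in hTyr IP, a difference of 0.29 ± 0.09 (SE, limma adjusted p = 0.683). Eif5 was at 7.90, 8.03 and 8.16 in EYFP IP and at 8.15, 8.17, 8.25, 8.29 and 8.43 log2 CPM in hTyr IP, a difference of 0.23 ± 0.08 (SE, adjusted p = 0.701). Both overlapped by a single hTyr library. Eif5a2 overlapped more widely, with a difference of 0.23 ± 0.10 (SE, adjusted p = 0.776). The highest hTyr library was IP_501 for each of the 5, and that library also had the highest noradrenergic marker level, 7.35 log2 CPM against 5.49 to 6.59 in the other 10 IP libraries. Without that animal the differences of the 5 in this order were 0.23, 0.28, 0.22, 0.19 and 0.17. With the noradrenergic marker level as a covariate they were 0.23, 0.26, 0.24, 0.19 and 0.15, and 0 members passed the test with limma.

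In input, hTyr against EYFP gave 0 of 47 members past the threshold with limma, where 0.00794% of all genes passed (1 gene), 0 with voom and 0 at an unadjusted p under 0.05 with either, where 3.03% of all genes had such a p. The median log2 change was -0.020, against -0.0089 over all genes, and 0 members had groups that did not overlap, where 0.0953% of all genes did not overlap with hTyr higher and 0.0794% with hTyr lower. The 5 of lowest p were Eif4g3, at -0.14 ± 0.07 (SE), Eif5b at -0.27 ± 0.14, Eif3e at -0.16 ± 0.09, Eif3c at -0.14 ± 0.08 and Eif6 at 0.13 ± 0.09 on the log2 scale (limma adjusted p = 0.99 for each). Eif5b was at 4.11 to 5.18 log2 CPM in hTyr input and 4.71 to 5.07 in EYFP input, so the hTyr libraries spread on both sides of the control range.

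Whether the hTyr effect differed between IP and input was tested as an interaction over the 22 libraries. Again 0 of 47 members passed, where 0.00794% of all genes did (1 gene, higher). The count was 0 with voom too, and 3 members, all higher, had an unadjusted p under 0.05 with either tool, where 3.31% of all genes had such a p and 2.19% had it and were higher. The lowest p were those of Eif1a (0.38 ± 0.14, SE), Eif1ax (0.32 ± 0.14), Eif2s2 (0.31 ± 0.14), Eif2d (-0.23 ± 0.11) and Eif5a2 (0.29 ± 0.14), with limma adjusted p of 0.996 for each. Eif1a rose in IP against input in hTyr animals (0.45, limma adjusted p = 0.00409) and missed the threshold in EYFP animals (0.07, adjusted p = 0.439), and the interaction does not show that the treatments differ there. With the GC content and length trend removed and the animal as a block, Eif1a missed the threshold in hTyr animals. It then passed the test in EYFP animals, in a direction not given here.

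The interaction values of the members were ordered by GC content. Eif1a, Eif1ax, Eif2s2, Eif5 and Eif5a2 have transcripts of 38.8% to 42.1% GC, where the median of all genes with a transcript is 50.7% and that of the members 49.97%. Across the 47 members Spearman's rho between GC content and the interaction was -0.79, against -0.52 across 11738 genes. For hTyr against EYFP in IP alone the rho was -0.47 for the members and -0.28 for all genes, and in input it was 0.56 and 0.43. The points share their libraries, and the correlations are descriptions across genes. With the trend of each library on GC content and length removed, the 5 differences in IP were 0.24 for Eif1a, 0.26 for Eif1ax, 0.21 for Eif2s2, 0.15 for Eif5 and 0.15 for Eif5a2. With the animal as a block as well, the interaction was 0.24 for Eif1a, 0.14 for Eif1ax, 0.20 for Eif2s2 and 0.097 for Eif5a2. Without the animal of IP_501 the interaction was 0.22 for Eif1a, 0.26 for Eif1ax, 0.17 for Eif2s2 and 0.14 for Eif5a2. That of Eif2d, -0.23 in the main fit, lay between -0.29 and -0.19 under all alternatives run.

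**Figure D5:**
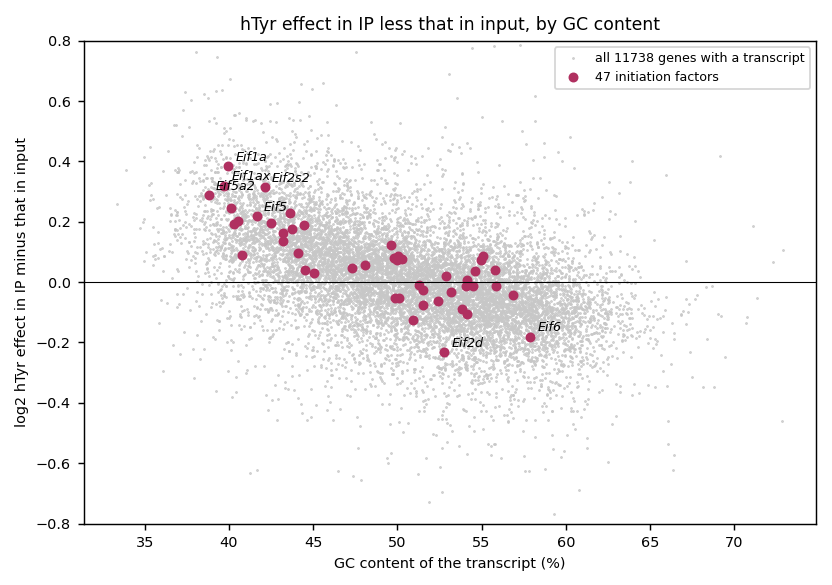
The log2 hTyr effect in IP minus that in input (y axis) against the GC content of the principal transcript (x axis, %), for 11738 genes in grey and the 47 initiation factors in red. Members run from 0.38 for Eif1a at 40.0% GC to -0.23 for Eif2d at 52.8% and -0.18 for Eif6 at 57.9%, with a rho of -0.79 where the grey points have -0.52, and 18 genes lie outside the y axis.

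Genes that act on the initiation factors were taken from pathway lists in the same hTyr against EYFP comparison in IP. Synthesis of the transcription factors ATF4 and CHOP rises when eIF2 alpha is phosphorylated. Of 22 of their targets, 2 rose and 0 fell, with a median log2 change of 0.086. The 2 were Atf3 (1.54 ± 0.25, SE, limma adjusted p = 0.0287), an early stress factor, and Ddit3, which encodes CHOP (1.14 ± 0.19, SE, adjusted p = 0.0287). At an unadjusted p under 0.05 with limma there were 6 of the 22, all higher. Of all genes, 6.19% had such a p and 2.88% had it and were higher. Chac1, which breaks down glutathione, gave 0.66 with an adjusted p of 0.415. Ddit3 was at 5.04, 5.42 and 5.81 log2 CPM in EYFP IP and at 6.12, 6.19, 6.31, 6.86 and 7.24 in hTyr IP. Its groups did not overlap, where 0.389% of all genes did not overlap with hTyr higher. In input the difference of Ddit3 was -0.03. Atf4 itself gave 0.13 ± 0.09 (SE, adjusted p = 0.859). For both Atf3 and Ddit3 the highest library was IP_501, at 3.56 and 7.24 log2 CPM, which also had the highest noradrenergic marker level. Their changes without that animal or with that level as a covariate are not given here.

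Of 13 eIF2 kinase and phosphatase genes, 0 passed the test and 1 had an unadjusted p under 0.05. This was Ppp1r15a, the stress-induced subunit that directs a phosphatase to eIF2 alpha. It was at 4.04, 4.20 and 4.54 log2 CPM in EYFP IP and 4.57, 4.60, 4.79, 5.25 and 5.58 in hTyr IP. The difference was 0.71 ± 0.16 (SE, limma adjusted p = 0.415). Its groups did not overlap, as in 0.389% of all genes with hTyr higher, and it had the lowest p of its list. The kinase genes Eif2ak3 (PERK) and Eif2ak4 (GCN2) gave 0.10 and -0.08. The GCN2 regulators Impact and Gcn1l1 gave 0.26 and -0.18. Of 16 genes of mTORC1 and MNK signalling to eIF4F, 0 passed and 2 had an unadjusted p under 0.05, where 6.19% of all genes did. Both were lower: Tsc2 (-0.20), an inhibitor of mTORC1, and Mtor (-0.21), its kinase, while its activator Rheb gave 0.10.

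The count past the threshold in this comparison was likewise 0 of 26 for the initiation helpers, 0 of 18 for the elongation and termination factors, 0 of 20 for the synthetases and 0 of 81 for the ribosomal proteins. At an unadjusted p under 0.05 there were 1, 0, 0 and 2. The lowest p among the helpers was that of Abce1, the ribosome recycling factor (0.30), followed by Mcts2 (0.21) and the helicase Dhx29 (0.13). Dhps, which makes the hypusine of eIF5A, gave 0.18, Sbds 0.16 and Etf1 0.16, and among the synthetases Vars gave -0.24, Hars 0.13 and Sars 0.12. The median log2 change of the ribosomal protein genes was -0.052 and that of the initiation factors 0.035, with 23 of 81 and 29 of 47 above 0, where 6072 of the 12596 genes were.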

How the data were processed

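RNA levels were measured by RNA sequencing. The authors deposited 1 table of filtered, normalized log2 values, and STAR, featureCounts and mm10 are named in the submitters' processing notes, without versions. The deposited log2 values were found to be CPM with a pseudocount that averaged 2 reads, from which 100% of values came back as whole reads (tolerance 0.1), which gave the depths. Which normalization was applied is not given in the sources used here. Reads carry no molecular identifiers.

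Every gene was tested with limma 3.58.1 in R 4.3.3 (eBayes with a trend), with Benjamini-Hochberg adjustment over all 12596 genes and a threshold of 0.05, and fold changes are on the log2 scale that includes the pseudocount. Each treatment comparison used its 11 libraries, IP against input the 12 EYFP or 10 hTyr libraries, and the interaction all 22. In the treatment comparisons p-values measure the spread between these animals. The main tests of IP against input and of the interaction took all libraries as independent, without the animal as a block. Their p-values measure the spread between libraries. IP and input of an animal share its number in the titles. Their deviations from the group means correlated at 0.28 to 0.63, and each of the 11 animals correlated best with itself. The tests were checked on simulated data with known changes.

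Members and lists were chosen with earlier results of these data known. Named were the 5 members of lowest p in each hTyr comparison, the 5 largest rises and 5 largest falls in EYFP IP, 11 members fixed by role, and up to 3 genes of lowest p per pathway list with Eif2ak3, Eif2ak4, Atf4, Ddit3 and Ppp1r15a. Other genes named were chosen after their values were seen. Alternatives were no trend, quantile normalization, median centring, the upper 75% of genes by mean, 4 CPM added before the log, sample quality weights, a shared spread, the replicate block, glial and noradrenergic scores as covariates and leaving out each animal. Chosen after seeing the data were voom on recovered reads, total reads and Y-linked genes as covariates, and removal of each library's trend on GC content and length (loess, span 0.4). Transcripts came from GENCODE vM21 for 11738 genes (93.2%) and all 47 members, promoters from RefSeq. Figures were drawn with Python 3.11.15 and matplotlib 3.10.9.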

Additional observations from a re-analysis of the deposited data

Results flagged for a closer look

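In 5 of the 92 groups of libraries examined for 23 initiation factor genes, the highest or lowest library lay far from the rest, where chance gives about 1 in 20 groups, or 4.6. In EYFP input, Eif2s1 was at 4.86 log2 CPM in Pre_507, with the next library at 5.03. In EYFP IP, Eif2b5 was at 6.16 in IP_505, with the next at 6.37. In hTyr IP, Eif5a was at 8.48 in IP_501 (next 8.28) and Eif4a1 at 7.62 in IP_509 (next 7.44). In hTyr input, Eif4g2 was at 8.96 in Pre_501, with the next at 9.30. For Eif4g2 the difference between IP and input in hTyr animals was -0.01 with this animal and -0.11 without it.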

How the results depend on the processing

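The counts of members past the threshold stayed within 1.5 times of those reported under every alternative run, at 30 to 40 in EYFP and 30 to 40 in hTyr animals for IP against input and at 0 for the hTyr comparisons and the interaction. With the replicate block, which pairs the libraries of an animal, 25 rose and 12 fell in EYFP and 24 rose and 10 fell in hTyr animals, Eif5a2 and Eif2s3x passing in EYFP and Eif2b2 and Eif2s3x in hTyr animals, and the block changed no other call. Under median centring the median of the members in input turned to 0.0065, with no member called. Named log2 changes that reversed were Eif5 in EYFP (-0.0081) and Eif4e in hTyr animals (-0.37) for IP against input with the GC content and length trend removed and the replicate block, and Eif4g2 in hTyr animals, never called in that direction, at 0.0084 under quantile normalization and from -0.11 to 0.023 when leaving out 1 animal. Of 865 alternative values for 49 named results, 842 kept their direction and side of the threshold, 8 lost the call, 8 gained it and 7 reversed. Over all genes the hTyr effect in IP was called for 7 genes, from 3 with total reads as a covariate to 14 with a shared spread, and the interaction for 1, or 5 with the replicate block and 7 with the trend also removed. With 5 and 6 animals, changes well under 2-fold can be missed.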
